A study of Mus musculus with 48 samples.

Results

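The proteasome subunits and regulators were examined as a gene family in mouse skeletal muscle. Members were the protein-coding genes whose symbol starts with Psma to Psmg followed by a digit, and 51 of the 56748 genes listed with FPKM matched, out of 21970 protein-coding genes. FPKM divides a read count by the length of the gene and the size of the library, so levels can be compared between genes. Of the 51 members, 49 had enough counts to be tested among 15637 genes, and *Psma8* and *Psmb11* did not. The pattern also took in *Psmc3ip* and *Psme3ip1*, which encode no subunit and bear the name of a partner only.

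The tissue was tibialis anterior muscle of male mice aged 39 to 55 weeks, which had an orthotopic injection of KPC cells, a murine pancreatic cancer line, or of saline as control. FoxP1SkmKO mice were homozygous for floxed FoxP1 and carried Cre driven by ACTA1, a skeletal muscle actin gene, so that other cells of the muscle were not its target. The WT mice were described as FoxP1fl/fl without Cre in the design text and as C57BL/6J in the sample labels, and this was not resolved. All mice were kept in constant darkness before sampling at CT18, CT22, CT26, CT30, CT34, or CT38. Each of the 24 groups of genotype, treatment, and time had 2 mice and 1 library per mouse, or 12 libraries for each of 4 arms, here WT control, WT KPC, FoxP1SkmKO control, and FoxP1SkmKO KPC. Total counts ranged from 14480867 to 20787784 per library, and the members together took 0.281% to 0.363% of them.

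The proteasome degrades proteins that carry ubiquitin chains. Its 20S core is a barrel of alpha and beta rings with catalytic sites on the inner face, and the 19S cap recognizes, unfolds, and feeds in substrates. Interferon induces catalytic beta subunits that replace the constitutive ones in the immunoproteasome, and other caps, such as PA28 and PA200, open the core in other ways. In muscle wasting the ubiquitin-proteasome system is known as a main route of myofibrillar protein loss.

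Checks on the libraries bear on every result below. *Foxp1* averaged 0.630 FPKM in WT control, 0.629 in WT KPC, 0.578 in FoxP1SkmKO control, and 0.544 in FoxP1SkmKO KPC mice. Its whole-gene count did not separate the genotypes, with an averaged log2 difference of -0.11 in control mice (adjusted p = 0.459, the quasi-likelihood test of edgeR, Benjamini-Hochberg adjusted over all genes, as for all adjusted p-values below) and -0.20 in KPC mice (adjusted p = 0.246), and genotypes are therefore given as labelled. The 8 muscle fiber markers summed to between 128186 and 157851 CPM (read counts scaled to a common library size), and none averaged under 1 CPM over the 48 libraries. Both WT control libraries at CT26 stood apart from the rest. There, the deviation of all genes from their mean over libraries fell with gene length (Spearman rho -0.344 and -0.316, against -0.252 to 0.234 in the other libraries), so that short genes read high. The members are short, with a median length of 2808 bases against 4045 for all genes tested. In bulk muscle, fewer cells of a type and less RNA per cell cannot be told apart.

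Some members share sequence or exons with another gene, which limits how their reads can be assigned. *Psme2* and *Psme2b*, which encode PA28 beta and a nearly identical copy, have coding sequences of 717 bases that differ at 5 bases, or 99.3% identity, with an unbroken identical run of 311 bases. *Psme2* has 11 coding segments on chromosome 14, and *Psme2b* has 1 on chromosome 11. The differences, counted from 1 at the first coding base with the *Psme2* base first, are C312T, A369G, C489T, C519T, and C543T. A stretch of 60 coding bases, from base 484 to 543, is given to show how little separates them, with the differing bases in capitals (GRCm39, minus strand, chr14:55825506-55825703 for *Psme2*, which spans an intron, and chr11:48836403-48836462 for *Psme2b*).
Psme2: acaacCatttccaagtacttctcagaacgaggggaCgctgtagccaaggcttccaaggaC
Psme2b: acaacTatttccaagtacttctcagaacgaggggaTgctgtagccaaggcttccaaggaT
Exons of 27 of the 51 members overlap exons of another annotated gene, mostly on the opposite strand. Among the members described here, examples are *Psmb9*, which shares 743 exon bases with *Tap1*, *Psma3*, which shares 367 with a lncRNA, and *Psme1*, which shares 2192 with *Emc9*. Others are *Psmb7* (2817 with *Nek6*), *Psmc5* (1269 with *Smarcd2*), *Psmd13* (1231 with *Cox8b*), and *Psme2* (731 with *Rnf31*), and the list is not complete. Whether counting used strand is not given in the sources used here, so reads of such partners cannot be told apart.

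Sequence upstream of the gene starts was read for the members that the comparisons turn on. In the 250 bases before the annotated start (GENCODE canonical transcripts, GRCm39), the antioxidant response element TGACNNNGC, on either strand, lay in 7 of 51 members (13.7%), against 9.69% of 21770 protein-coding genes. *Psmb5*, the catalytic subunit that the immunoproteasome replaces with *Psmb8*, has this element 18 to 10 bases before its start. The CCAAT box was in 19 members (37.3%, against 36.5% of all genes), among them *Psma3* and *Psmc1*, which had the lowest p-values for the daily pattern described below. Of the 25 members called for that pattern, 8 had the box (32%), a share no higher than that of all genes. The stretch for *Psma3* stops 98 bases before the start, where an annotated UTR begins. Capitals mark TGACNNNGC in *Psmb5* and CCAAT in *Psma3* and *Psmc1*, whereas *Psmb8* is given because neither interferon-related pattern was found in it.
Psma3 (chr12:71021126-71021278, plus strand): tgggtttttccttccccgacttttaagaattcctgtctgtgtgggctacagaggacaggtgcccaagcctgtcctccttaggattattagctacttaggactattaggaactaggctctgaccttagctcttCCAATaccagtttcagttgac
Psmc1 (chr12:100076154-100076403, plus strand): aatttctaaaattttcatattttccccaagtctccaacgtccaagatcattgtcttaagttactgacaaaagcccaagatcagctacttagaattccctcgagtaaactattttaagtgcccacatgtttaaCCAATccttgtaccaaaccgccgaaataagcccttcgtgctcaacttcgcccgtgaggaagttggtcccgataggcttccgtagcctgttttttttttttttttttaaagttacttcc
Psmb5 (chr14:54855482-54855731, minus strand): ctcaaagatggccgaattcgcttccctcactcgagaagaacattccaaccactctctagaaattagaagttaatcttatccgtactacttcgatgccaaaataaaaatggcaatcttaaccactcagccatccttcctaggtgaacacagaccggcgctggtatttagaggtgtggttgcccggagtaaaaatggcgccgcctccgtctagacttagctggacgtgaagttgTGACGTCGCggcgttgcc
Psmb8 (chr17:34416440-34416689, plus strand): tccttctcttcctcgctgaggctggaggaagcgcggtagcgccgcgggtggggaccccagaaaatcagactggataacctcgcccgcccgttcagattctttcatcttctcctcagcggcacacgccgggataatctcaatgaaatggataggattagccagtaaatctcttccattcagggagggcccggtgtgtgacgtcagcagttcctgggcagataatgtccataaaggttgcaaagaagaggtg
The interferon-stimulated response element, searched as GAAA followed after any 2 bases by GAAA, was in 6 members (11.8%, against 3.32% of all genes), and the STAT pattern TTCNNNGAA in 4 (7.84%, against 7.70%). None of those members was an immunoproteasome gene, *Psme1*, or *Psme2*. The E-box CACGTG was in 5 members (9.80%, against 6.26%), TTANNTAA, a D-box pattern, in 2 (3.92%, against 5.33%), and TGTTTAC, a forkhead pattern, in *Psma8* only (1.96%, against 2.72%). The ETS pattern CCGGAAG was in 9 members (17.6%, against 6.89%). Motifs may overlap each other, and these are matches of letters in a fixed window that describe neither binding nor use of a site.

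Levels differed widely between parts of the complex. The constitutive 20S and 19S subunits were abundant and the immunoproteasome subunits were scarce in all 4 arms. In the alpha ring, which forms the gate of the core, mean FPKM over the 48 libraries ran from 13.0 for *Psma2* to 58.0 for *Psma6*, with a median gene at 18.2. Among constitutive beta subunits it ran from 13.5 for *Psmb1* to 79.4 for *Psmb5*, which was the highest of all members. The 6 ATPases of the 19S base, which unfold substrates, lay between 16.1 (*Psmc2*) and 64.2 (*Psmc5*), and the 11 other 19S subunits between 12.7 (*Psmd14*, the deubiquitinase of the lid) and 62.4 (*Psmd2*, a scaffold that binds shuttle factors). The subunits of a 20S particle are assembled in equal numbers, whereas their mRNA levels spanned this range.

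The accessory genes were lower. Assembly chaperones ran from 0.879 FPKM for *Psmg3* to 8.07 for *Psmg2*, and the inhibitor-like regulator PI31 (*Psmf1*) had 2.48. The PA200 cap (*Psme4*) had 30.7 FPKM and the nuclear PA28 gamma (*Psme3*) 18.9. The immunoproteasome subunits had mean levels of 0.959 FPKM (*Psmb9*), 1.43 (*Psmb8*), and 6.18 (*Psmb10*). The testis alpha subunit *Psma8* and the thymus beta subunit *Psmb11* were at 0.0124 and 0.00107 FPKM, with a median of 0 in every arm. The plot of levels by gene shows these steps with the range over libraries.

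**Figure D1:**
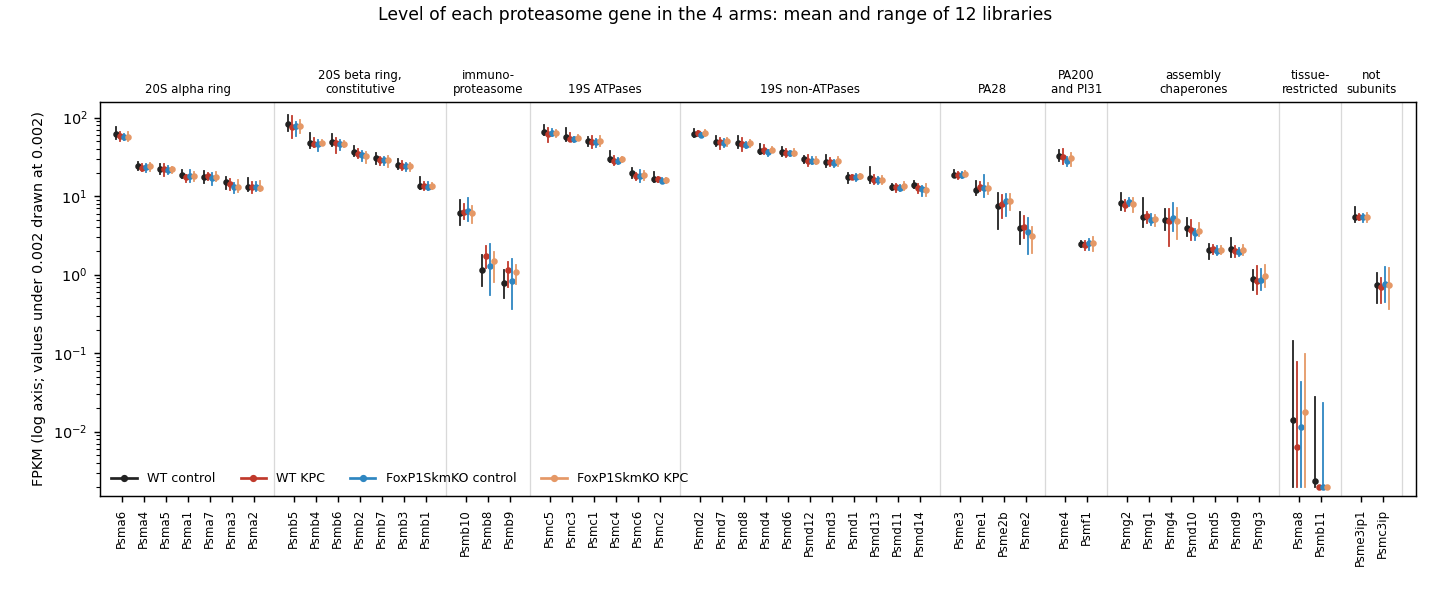
Mean FPKM (log axis) of each of the 51 members in the 4 arms, grouped by role, with lines from the lowest to the highest of 12 libraries and values under 0.002 FPKM drawn at 0.002. The arms lie close together for each gene, while genes range from 0.00107 FPKM (*Psmb11*) to 79.4 FPKM (*Psmb5*).

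To ask whether KPC tumors change the proteasome genes of WT muscle, KPC and control mice were compared with the 6 circadian times averaged. The immunoproteasome subunits *Psmb8* and *Psmb9* had the largest differences, both toward higher levels with KPC, but neither passed the threshold in WT mice alone. No member was called at an adjusted p under 0.05, while 1.79% of all genes were. At an unadjusted p under 0.05 there were 12 members (24.5%), against 15.2% of all genes, and DESeq2 on the same 48 libraries called 3, namely *Psmb5* (adjusted p = 0.0347), *Psmb8* (adjusted p = 0.0377), and *Psmb9* (adjusted p = 0.0354). Over the 49 members the median log2 difference was -0.04, with 16 above and 33 below 0, and the median of all genes was 0.0016.

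*Psmb8* encodes the interferon-inducible subunit with chymotrypsin-like activity. In WT control mice, its level in FPKM was between 0.722 and 1.77 with a median of 1.07, and in WT KPC mice between 1.22 and 2.29 with a median of 1.80. The arms overlapped, the KPC mean was higher at all 6 times, and both KPC libraries were above both control libraries at 4. The averaged log2 difference was 0.60 with a standard error of 0.18, or 51.5% (adjusted p = 0.0769), and the means were 1.15 and 1.74 FPKM.

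*Psmb9*, the inducible subunit that replaces *Psmb6*, had a level between 0.501 and 1.14 FPKM in WT control mice (median 0.809). In WT KPC mice it lay between 0.689 and 1.44 FPKM (median 1.16). The KPC mean was higher at 4 of 6 times, and at each of these both KPC libraries were above both controls. Its log2 difference was 0.55 with a standard error of 0.15, or 46.4% (adjusted p = 0.0583), and without CT26 it was 0.66 (adjusted p = 0.0502), where 0.883% of all genes and no member were called, with 9 members (18.4%) and 12.0% of all genes at an unadjusted p under 0.05. *Psmb10*, which replaces *Psmb7*, was between 4.36 and 8.94 FPKM in WT control and between 5.19 and 8.00 in WT KPC mice. Its log2 difference was 0.06 with a standard error of 0.087 (adjusted p = 0.798).

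The constitutive partners lay on the other side of 0. *Psmb5* was between 68.1 and 106.9 FPKM in WT control mice (median 81.7) and between 55.6 and 104.3 in WT KPC mice (median 76.3), lower on average at 5 of 6 times. Its log2 difference was -0.16 with a standard error of 0.045, or -10.6% (adjusted p = 0.0583), and without CT26 it was -0.11 (adjusted p = 0.332). *Psmb6* and *Psmb7* had log2 differences of -0.07 (adjusted p = 0.35) and -0.10 (adjusted p = 0.171). Expressed as a ratio of FPKM, *Psmb8* was 1.36% ± 0.247 of *Psmb5* (SD, n = 12) in WT control and 2.34% ± 0.505 in WT KPC mice. The ratio of *Psmb9* to *Psmb6* was 1.60% ± 0.373 and 2.46% ± 0.570, and that of *Psmb10* to *Psmb7* was 19.3% ± 3.73 and 21.6% ± 3.58. In both arms, *Psmb8* and *Psmb9* were thus a small fraction of their partners, and *Psmb10* was a larger one. The plot of the 3 catalytic pairs gives every library.

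**Figure D2:**
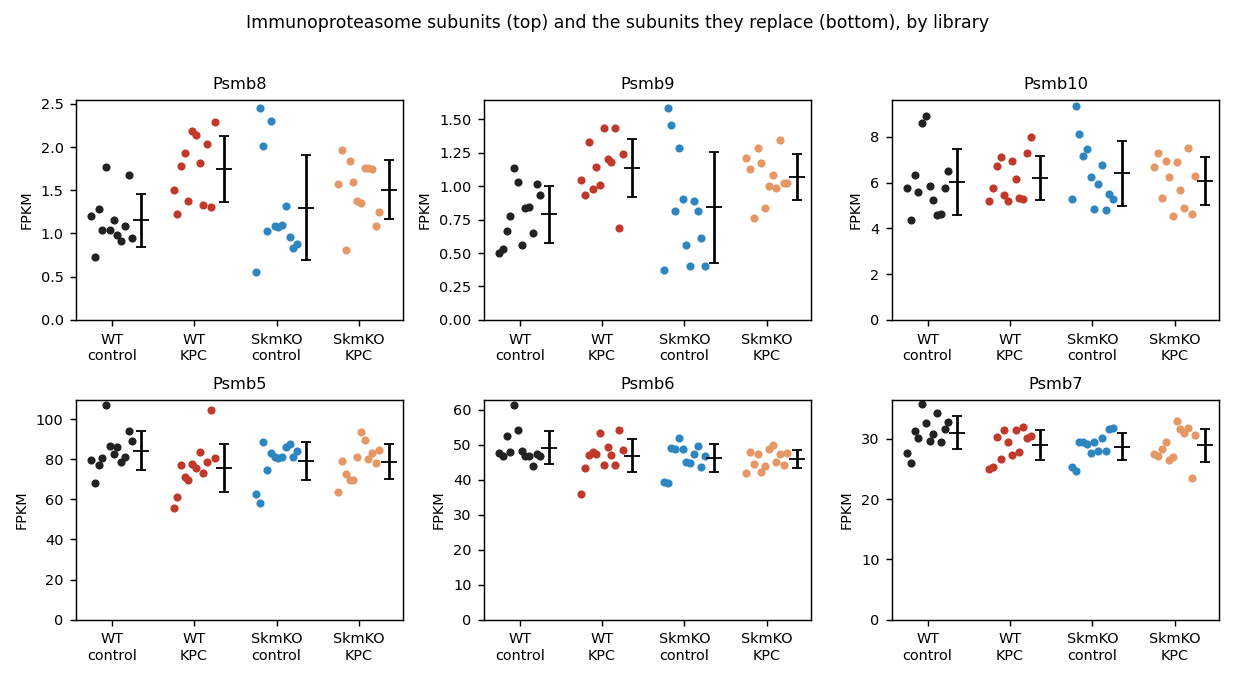
FPKM of the 3 immunoproteasome subunits (top) and the constitutive subunits they replace (bottom) in each of the 12 libraries of the 4 arms, with the mean and SD beside them (SkmKO stands for FoxP1SkmKO). *Psmb8* has means of 1.15 FPKM in WT control and 1.74 in WT KPC mice, and 1 FoxP1SkmKO control library reaches 2.45.

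Other members named by size in WT mice were *Psmc6*, a 19S ATPase, with a log2 difference of -0.14 (adjusted p = 0.0784), and *Psmd14*, with -0.12 (adjusted p = 0.139), both lower on average at all 6 times. The PA28 alpha gene *Psme1* had a log2 difference of 0.12 (adjusted p = 0.372), with a range of 10.4 to 15.4 FPKM in control and of 11.8 to 15.3 in KPC mice. *Psme2* and *Psme2b* each had 0.09 (adjusted p = 0.75 and 0.718). Counted as 1 gene, they had 0.08 (adjusted p = 0.561). *Psme3* ranged from 17.6 to 21.3 FPKM in control and from 16.5 to 20.4 in KPC mice, *Psme4* from 28.1 to 39.0 and from 26.1 to 39.4, and *Psmf1* from 2.24 to 2.70 and from 2.04 to 2.67. The arms overlapped for all 3, and their log2 differences were -0.0033, -0.05, and -0.04.

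In FoxP1SkmKO mice, the same comparison also called no member, against 0.428% of all genes, with 6 (12.2%) at an unadjusted p under 0.05, against 12.4% of all genes, and 0 by DESeq2. The median log2 difference was 0.02, with 34 members above and 15 below 0. *Psmb9* was between 0.370 and 1.58 FPKM in control and between 0.758 and 1.34 in KPC mice, and its log2 difference was 0.42 with a standard error of 0.15 (adjusted p = 0.218). *Psmb8* was between 0.558 and 2.45 FPKM in control and between 0.805 and 1.96 in KPC mice, with a log2 difference of 0.24 (adjusted p = 0.642). The highest control values of both genes were in 1 library, FoxP1SkmKO control CT18 replicate 2, whose 14 interferon-related genes summed to 912.7 CPM, against a median of 338.0 in that arm. That library was singled out by these values, so leaving it out could only raise the difference, which became 0.66 for *Psmb9*. Over all fits without 1 library, the difference ran from 0.31 to 0.66 for *Psmb9* and from 0.12 to 0.48 for *Psmb8*. *Psmd4*, a ubiquitin receptor of the 19S cap, had 0.11 (adjusted p = 0.0996), *Psmg3* 0.20 (adjusted p = 0.515), and the lowest values were -0.19 for *Psmg4*, -0.16 for *Psme2*, and -0.09 for *Psmg2*.

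The difference of the KPC effect between genotypes was called for 0% of all genes and for no member, with 8 members (16.3%) at an unadjusted p under 0.05, against 6.52% of all genes, and 0 by DESeq2. The effect in WT exceeded that in FoxP1SkmKO mice most for *Psmb8* (0.36, standard error 0.25), *Psme2* (0.25), and *Psmg4* (0.16), and fell below most for *Psmg3* (-0.31), *Psmd10* (-0.20), and *Psmb5* (-0.16, adjusted p = 0.764). For *Psmb8* the value ran from 0.12 to 0.48 in the fits that left out 1 library. With the times averaged, a KPC effect that depends on genotype was thus not detectable for any single member with these mice. Of the 49, 37 lay below 0 and 12 above, with a median of -0.06 against -0.00096 for all genes. Averaged over both genotypes, a comparison added after seeing the data, *Psmb9* rose by 0.49 (standard error 0.11, adjusted p = 0.00638) and *Psmb8* by 0.42 (standard error 0.13, adjusted p = 0.0446). These were 2 of 49 members called higher, against 2.86% of all genes. *Psmb9* shares 743 exon bases with *Tap1*, which rose by 0.68 in the same comparison. The part of *Tap1* reads in the *Psmb9* value was not tested.

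Genes that share interferon control with the immunoproteasome moved in the same comparison. Of 14 genes for interferon-gamma response and antigen presentation, 7 rose with KPC in WT mice and all 14 were above 0, with a median log2 difference of 0.43. They included the peptide transporter *Tap1* (0.92, adjusted p = 0.0141), the class I transactivator *Nlrc5* (0.86, adjusted p = 0.0315), and the guanylate-binding protein *Gbp2* (0.73, adjusted p = 0.0177). The summed list ranged from 292.3 to 395.3 CPM in WT control and from 373.5 to 557.2 in WT KPC mice. In FoxP1SkmKO mice none of the 14 was called while all 14 were above 0, with a median of 0.11, and FoxP1SkmKO control CT18 replicate 2, with its sum of 912.7 CPM, is among the controls. The difference of the KPC effect between genotypes was called for no gene, these included, and averaged over both genotypes 7 rose. Across the 48 libraries, the log2 level of *Psmb8* correlated with the summed list at r = 0.84, a description over libraries that share depth and treatment.

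Markers of other cells moved with KPC as well, and their part in the immunoproteasome result was not tested. Of the 5 neutrophil markers, 3 could be tested and *S100a8* (2.83) and *S100a9* (2.06) rose in WT mice, while all 5 averaged under 1 CPM. Their sum ranged from 0.243 to 1.29 CPM in WT control and from 0.805 to 2.93 in WT KPC mice. The 8 macrophage markers summed to between 22.0 and 76.5 in WT control and between 28 and 128.1 in WT KPC mice, with none called, and 7 of the 8 lymphocyte markers averaged under 1. *Col1a1* and *Col3a1* fell among 5 fibro-adipogenic markers, whose sum ranged from 166.7 to 562.3 and from 101.4 to 493.5. *Kdr* fell among 6 endothelial markers (-0.27, adjusted p = 0.0412), whose sum ranged from 398.5 to 491.1 and from 393.5 to 486.3. The log2 level of *Psmb8* correlated with the summed markers of neutrophils at r = 0.52, of macrophages at 0.20, of lymphocytes at 0.017, and of fibro-adipogenic cells at -0.39 (n = 48).

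To ask what loss of muscle FoxP1 does to the proteasome genes without a tumor, FoxP1SkmKO and WT control mice were compared over the 6 times. *Psma3*, *Psme4*, and *Psmd14* were called lower in FoxP1SkmKO mice, and most other members also lay below 0 without passing the test. These 3 of 49 members called lower stand against 1.58% of all genes. Of the 49, 40 lay below 0, among them all 31 subunits of the 20S core and 19S cap, with a median log2 difference of -0.05 against 0.0014 for all genes, and 18 (36.7%) were under 0.05 unadjusted, against 17.2% of all genes. Without CT26, the time of the WT control libraries that stood apart, 29 lay below 0 and 7 (14.3%) were under 0.05 unadjusted, against 13.4% of all genes, and the same 3 were called, against 1.17% of all genes.

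*Psma3* encodes the alpha7 subunit of the core. At CT18 to CT38, its FPKM in WT control mice was 13.7 and 12.5, 13.7 and 13.5, 14.96 and 13.9, 15.9 and 17.1, 17.7 and 16.9, and 16.2 and 17.1. In FoxP1SkmKO control mice it was 10.9 and 11.3, 11.5 and 12.0, 13.2 and 12.6, 14.4 and 13.5, 14.6 and 14.6, and 14.7 and 13.1. Both FoxP1SkmKO libraries were below both WT libraries at all 6 times. The averaged log2 difference was -0.23 with a standard error of 0.035, or -14.6% (adjusted p = 0.000247), and *Psma3* was called lower in each of 48 fits that left out 1 library.

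*Psme4* encodes PA200, a nuclear cap of the 20S core. It ranged from 28.1 to 39.0 FPKM in WT control (median 31.8) and from 23.99 to 31.7 in FoxP1SkmKO control mice (median 29.1), and both FoxP1SkmKO libraries were below both WT libraries at 5 of 6 times. Its log2 difference was -0.19 with a standard error of 0.050, or -12.6% (adjusted p = 0.0228). *Psmd14* ranged from 12.8 to 15.4 FPKM in WT control (median 13.6) and from 10.03 to 13.4 in FoxP1SkmKO control mice (median 12.7), also apart at 5 of 6 times. Its log2 difference was -0.15 with a standard error of 0.043, or -9.81% (adjusted p = 0.0473), close to the threshold. *Psmd14* was called in 13 and *Psme4* in 40 of the 48 fits without 1 library.

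The chaperone *Psmd10* had the lowest log2 difference of all members, -0.24 with a standard error of 0.083, but was not called (adjusted p = 0.11). The core subunit *Psmb2* had -0.15 (adjusted p = 0.0584). At the other end stood *Psme2b* (0.22, adjusted p = 0.235), *Psmb8* (0.14, adjusted p = 0.757), and *Psmb10* (0.10, adjusted p = 0.597). Counted as 1 gene, *Psme2* and *Psme2b* differed by 0.04. The plot of averaged differences places these side by side with the KPC effects.

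**Figure D3:**
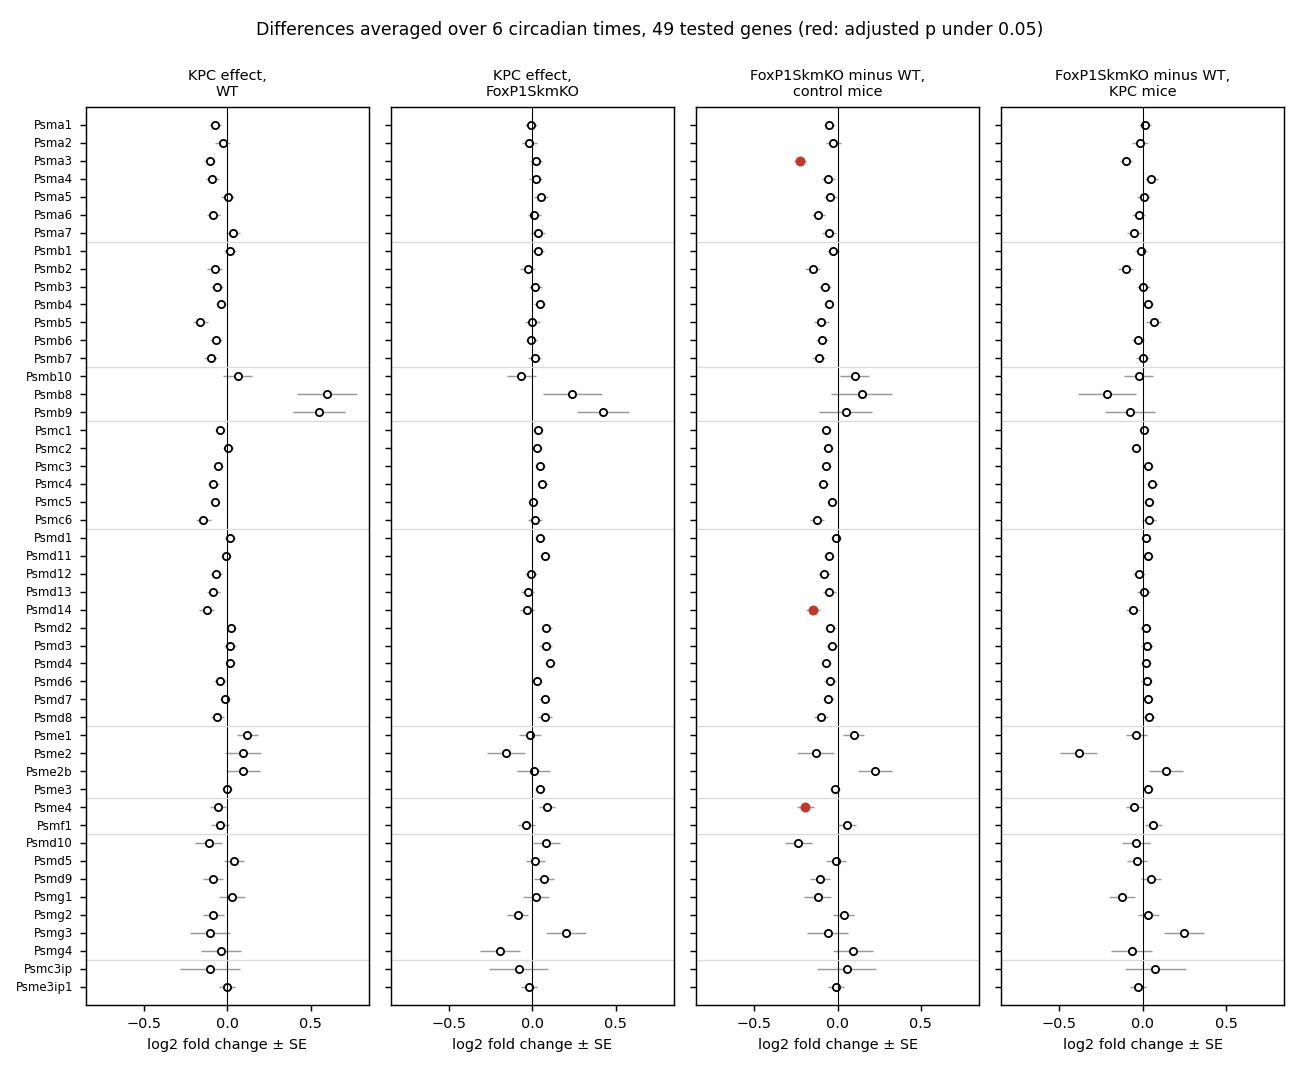
Log2 fold change with its standard error for the 49 tested members, by role, in each comparison averaged over the 6 circadian times, with red points for an adjusted p under 0.05. *Psma3* (-0.23), *Psme4* (-0.19), and *Psmd14* (-0.15) are red in the comparison of FoxP1SkmKO and WT control mice.

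The same comparison was made in KPC mice. No member was called, against 0.32% of all genes, with 3 (6.12%) at an unadjusted p under 0.05, against 10.8% of all genes, and 0 by DESeq2. Whether the genotype difference itself differs between control and KPC mice is the same test as the difference of the KPC effect between genotypes, which called no member. *Psma3* had a log2 difference of -0.10 (adjusted p = 0.247), with a range of 11.8 to 16.5 FPKM in WT KPC and of 11.3 to 15.9 in FoxP1SkmKO KPC mice. *Psme2* had the largest, -0.38 (adjusted p = 0.128), but counted with its copy *Psme2b* the difference was -0.12 (adjusted p = 0.481). *Psmb8* had -0.22 (adjusted p = 0.696) and *Psmg1* -0.12 (adjusted p = 0.594). At the other end stood *Psmg3* (0.25, adjusted p = 0.464), *Psme2b* (0.14), and *Psmc3ip* (0.08). The KPC effects above use the same control libraries as the genotype comparison, so their values for *Psma3*, -0.11 in WT (adjusted p = 0.114) and 0.02 in FoxP1SkmKO mice, are not independent of it.

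Averaged over control and KPC mice, a comparison added after seeing the data, 5 of 49 members were lower in FoxP1SkmKO mice, against 2.74% of all genes. They were *Psma3* (-0.16, adjusted p = 6.29e-05), *Psmb2* (-0.13, adjusted p = 0.0138), *Psme4* (-0.12, adjusted p = 0.0308), *Psmd14* (-0.10, adjusted p = 0.0367), and *Psme2* (-0.26, adjusted p = 0.0451). Counted as 1 gene, *Psme2* and *Psme2b* had a mean log2 difference of -0.04 over control and KPC mice. In the same comparison, of 9 genes known to act in proteasome gene transcription, as activators or repressors, 4 were called higher and 1 lower, against 3.41% of all genes called higher. *Mafg*, a small Maf partner, rose by 0.17 (adjusted p = 0.000498), *Nfe2l2*, the Nrf2 gene, by 0.11 (adjusted p = 0.0342), *Ddi2*, the protease that activates Nrf1, by 0.13 (adjusted p = 0.0377), and *Keap1*, the Nrf2 repressor, by 0.09 (adjusted p = 0.0185). *Ngly1*, which deglycosylates Nrf1, fell by 0.10 (adjusted p = 0.0198). In WT control mice, *Ddi2* was lower at CT26 than the mean of CT22 and CT30 (-0.57, adjusted p = 0.000904). The comparison averaged over control and KPC mice was not made without CT26.

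The study compared KPC and control mice at each time of day, and at single times the only members called were at CT26 in WT mice. There, 9 of 49 members were lower in KPC mice, against 2.53% of all genes, 24 (48.98%) were under 0.05 unadjusted, against 21.4% of all genes, and 44 lay below 0, with a median log2 difference of -0.20. The 9 were the beta subunits *Psmb1*, *Psmb4*, and *Psmb5*, the alpha subunit *Psma6*, the ATPases *Psmc3* and *Psmc5*, the lid subunit *Psmd13*, the immunoproteasome subunit *Psmb10*, and the chaperone *Psmd10*. *Psmb5* had 106.9 and 86.4 FPKM in the control libraries and 69.7 and 77.7 in the KPC libraries, and differed by -0.40 (adjusted p = 0.0241). *Psmb4* had 64.1 and 56.3 against 49.2 and 48.9 (-0.30, adjusted p = 0.0126), and *Psmd10* had 5.34 and 4.39 against 2.76 and 2.99 (-0.77, adjusted p = 0.0187). For each of these 3 genes, both control libraries were above both KPC libraries.

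The WT control libraries of this time are those that stood apart. *Psmb5* had 77.3 and 80.4 FPKM in WT control mice at CT22 and 82.4 and 85.8 at CT30, lower than both values at CT26. Within WT control mice, 20 of 49 members were higher at CT26 than the mean of CT22 and CT30, against 6.41% of all genes, and 45 were above 0 with a median of 0.25. In the other arms, the same contrast called no member, against 0.0128% of all genes in WT KPC, 0% in FoxP1SkmKO control, and 0.064% in FoxP1SkmKO KPC mice, with 3, 1, and 5 members under 0.05 unadjusted (6.12%, 2.04%, and 10.2%, against 7.03%, 6.63%, and 10.2% of all genes). Across genes, this contrast in WT control mice correlated with gene length at a Spearman rho of -0.375 (n = 15637), and at -0.361 over the members (n = 49). The median length of the 9 called members was 1705 bases. With the length trend of each library removed, no member was called at CT26, while 2.6% of all genes were. There, 11 members (22.4%) were under 0.05 unadjusted, against 15.5% of all genes. Of the 49, 41 still lay below 0, with a median of -0.10, and some of the 9 kept much of their size, such as *Psmb1* (-0.29, adjusted p = 0.0746), *Psmd10* (-0.59, adjusted p = 0.124), and *Psmb10* (-0.56, adjusted p = 0.154). Others were smaller, such as *Psmb5* (-0.21) and *Psmc5* (-0.10). Without replicate 1 of WT control or of WT KPC at CT26 no member was called, without replicate 2 of WT KPC 2 were, and without replicate 2 of WT control 16 were. Each of these fits leaves 1 library in a group, which is assumed to vary like the other groups. DESeq2 called 9 with all 48 libraries and 1 with the 4 of this time alone.

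At the other times no member was called in either genotype. The share of all genes called in WT mice was 0% at CT18, 0% at CT22, 0.0064% at CT30, 0% at CT34, and 0.0256% at CT38. In that order, 6, 0, 1, 3, and 6 members were under 0.05 unadjusted (12.2%, 0%, 2.04%, 6.12%, and 12.2%), against 6.23%, 4.77%, 5.21%, 6.06%, and 9.82% of all genes. In FoxP1SkmKO mice the share called was 0.0192% at CT18, 0% at CT22, 0.0384% at CT26, 0% at CT30, 0% at CT34, and 0.0064% at CT38. There, 3, 1, 4, 8, 0, and 3 members were under 0.05 unadjusted (6.12%, 2.04%, 8.16%, 16.3%, 0%, and 6.12%), against 13.8%, 4.69%, 8.90%, 8.95%, 4.05%, and 8.05% of all genes. At CT30 in FoxP1SkmKO mice, 43 members lay above 0 and 6 below, with a median log2 difference of 0.125, while 52.9% of all genes lay above 0. The difference between the genotypes at CT26 was called for 0.345% of all genes and for no member, with 10 (20.4%) under 0.05 unadjusted, against 11.01% of all genes, and DESeq2 called *Psmc5* (adjusted p = 0.0422). Without the expression filter, edgeR called *Psmb5* for the difference between the genotypes at CT18 (-0.59, adjusted p = 0.025).

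The plot of the 20S and 19S subunits by library gives the same pattern for the complex as a whole. The mean deviation of 31 subunits from their own means (log2 CPM) was 0.269 and 0.126 in the WT control libraries at CT26 and between -0.0735 and 0.028 in the other 6 libraries of that time. Over the 48 libraries it correlated with the length trend at r = -0.72, and at -0.62 without the WT control libraries at CT26, which are also those farthest from the median. Within arms it was -0.81 in WT control, -0.72 in WT KPC, -0.70 in FoxP1SkmKO control, and -0.70 in FoxP1SkmKO KPC mice (n = 12 each). Both measures come from the same counts, so these values are a description.

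**Figure D4:**
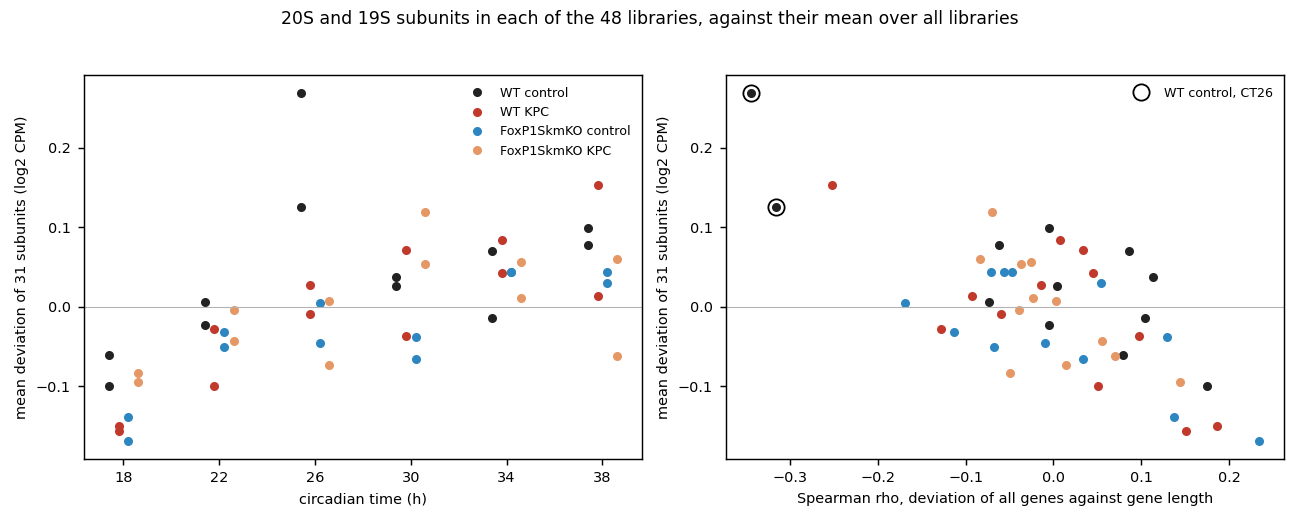
Mean deviation of 31 subunits of the 20S core and 19S cap (log2 CPM) in each of the 48 libraries, against circadian time (left) and against the Spearman rho of all genes with gene length (right). The circled WT control libraries at CT26 have the highest and the third-highest deviation, 0.269 and 0.126, and all 8 libraries of CT18 lie below 0.

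Many proteasome genes had a daily pattern, at a share somewhat above that of all genes. With a 24 h sinusoid fitted to the counts and averaged over the 4 arms, 25 of 49 members were called (51.0%), against 39.9% of all genes, and 33 (67.3%) were under 0.05 unadjusted, against 48.1% of all genes. The fitted peaks of 19 of the 25 (76%) lay between CT30 and CT36, a window chosen after seeing the values that covers the later part of the subjective day, as did 2096 of 6232 called genes (33.6%). The median amplitude of the called members was 0.083 on the log2 scale, or 12.2% from trough to peak, against 0.146 or 22.4% for all called genes. The daily change in proteasome genes was thus shallow, and its peaks lay together.

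*Psma3* had the lowest p-value, with an amplitude of 0.19 (29.5% from trough to peak) and a peak at CT33.1 (adjusted p = 2.17e-09). *Psmc1*, a 19S ATPase, had 0.13 (20.3%) and CT32.5 (adjusted p = 2.27e-07), and *Psmd7*, a lid subunit, 0.11 and CT31.5 (adjusted p = 1.17e-05). *Psmb5* had 0.13 and CT31.5 (adjusted p = 0.000101), *Psmd11* 0.083 and CT33.7 (adjusted p = 0.000203), and *Psmd1* 0.074 and CT35.1 (adjusted p = 0.000653). By part of the complex, 5 of 7 alpha subunits, 5 of 7 constitutive beta subunits, 4 of 6 ATPases, and 7 of 11 other 19S subunits were called. Among regulators, *Psme4* had 0.11 and CT34.0 (adjusted p = 0.00292), *Psme3* 0.056 and CT32.2 (adjusted p = 0.0151), and the chaperone *Psmg4* 0.27 and CT29.2 (adjusted p = 0.00224).

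Besides *Psmg4*, 5 called members peaked outside that window. *Psmc4* (CT26.2), *Psmb4* (CT27.5), *Psmb6* (CT27.7), and *Psmd13* (CT28.3) peaked earlier. Each of these had its highest group mean in WT control mice at CT26 (35.6, 60.2, 57.8, and 20.9 FPKM in that order), whose libraries stood apart. The part of those libraries in the early peaks was not tested. *Psmf1* peaked at CT20.5 (amplitude 0.084, adjusted p = 0.0327), the earliest fitted peak of the 25. No immunoproteasome subunit was called (*Psmb8* adjusted p = 0.43, *Psmb9* 0.514, *Psmb10* 0.0927), nor were *Psme1* (0.907), *Psme2* (0.425), and *Psme2b* (0.324). *Psme2* and *Psme2b* counted as 1 gene were called (amplitude 0.093, adjusted p = 0.0341). The scatter of fitted peak and amplitude shows the members in the shaded window and those outside it.

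**Figure D5:**
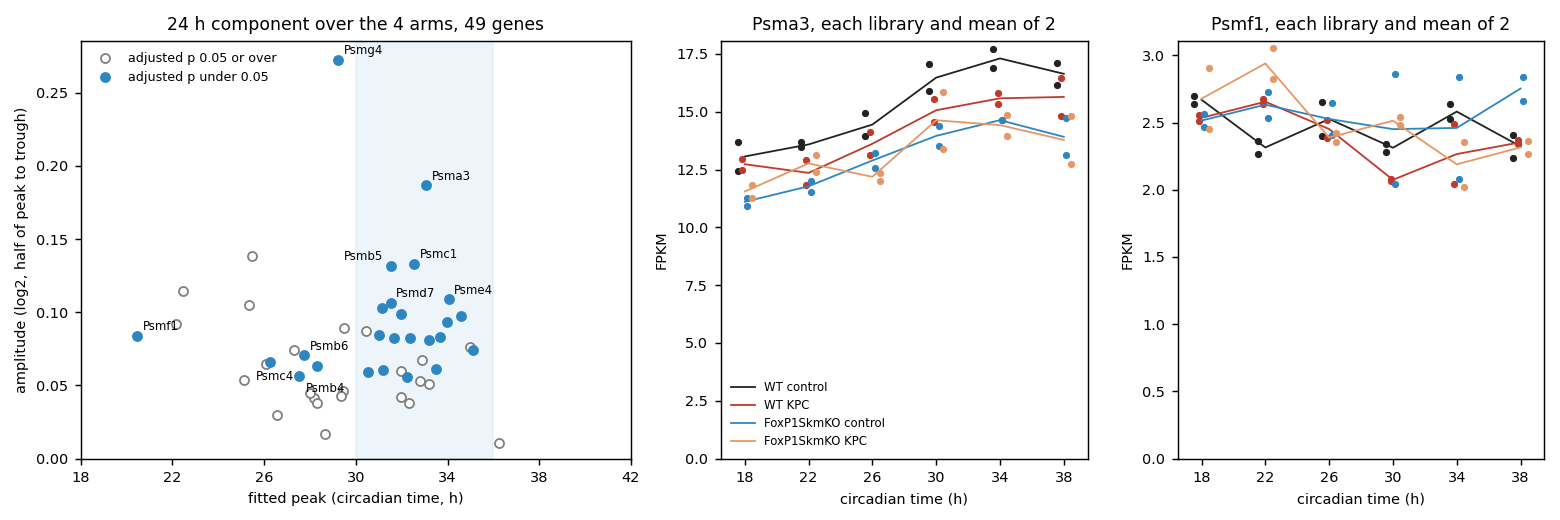
Fitted peak and amplitude (log2) of the 24 h component averaged over the 4 arms for the 49 tested members, with filled points for an adjusted p under 0.05 and the window CT30 to CT36 shaded, and FPKM of *Psma3* and *Psmf1* by circadian time in each library, with lines through the mean of 2 mice. *Psma3* peaks at CT33.1 with an amplitude of 0.19, and its lines for the FoxP1SkmKO control mice lie below those for the WT control mice.

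The pattern did not rest on the WT control arm. Without it, 23 members were called, 20 of them among the 25, against 28.2% of all genes, and 87.0% of the 23 peaked between CT30 and CT36, against 37.05% of all genes called there. With the length trend removed 23 members were called (38.5% of all genes), with RLE scaling 22 (39.5%), with DESeq2 19 (30.8%), and without the expression filter 17 (35.3%), which at 17 of 49 was no higher than the share of all genes. Of the 23 called with the length trend removed, 87.0% peaked between CT30 and CT36, against 34.8% of all genes called there. With 1 library left out, 19 to 24 were called. All 8 libraries of CT18 had a mean subunit deviation below 0, from -0.169 to -0.061, while at CT34 and at CT38 1 of 8 did, with ranges of -0.0146 to 0.084 and -0.0625 to 0.154. The length trend of the CT18 libraries had a median rho of 0.147, against -0.0081 at CT34.

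Markers of other cells had daily patterns with other peaks. All 8 macrophage and all 5 fibro-adipogenic markers were called, as were 5 of 6 endothelial and 4 of 8 muscle fiber markers. Only *Tnnt3*, at CT30.6, of these peaked between CT30 and CT36. The summed macrophage markers had a median of 64.1 CPM at CT18 (range 45.6 to 128.1) and 28.6 at CT34 (22.0 to 49.4). The fibro-adipogenic markers had medians of 389.9 (127.8 to 471.0) and 157.3 (101.4 to 377.7), the endothelial 444.3 (394.5 to 470.7) and 416.6 (392.5 to 447.7), and the muscle fiber markers 154101 (136928 to 157851) and 142376 (135995 to 151081). None of these markers averaged under 1 CPM over the 48 libraries, and their part in the pattern of the proteasome genes was not tested.

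Each arm alone gave fewer calls. In WT control mice 11 members were called, against 18.4% of all genes, in WT KPC 7 (11.2%), in FoxP1SkmKO control 2 (8.27%), and in FoxP1SkmKO KPC mice 4 (6.93%). These counts depended on the processing. With the length trend removed they were 5, 8, 3, and 3 in the same order (13.7%, 11.9%, 8.49%, and 7.46% of all genes), and without the expression filter 3, 4, 7, and 2 (17.9%, 12.8%, 12.4%, and 10.4%), so no order of the arms is drawn from them. *Psma3* was among the members called in every arm, with amplitudes of 0.21, 0.19, 0.19, and 0.16 and peaks at CT33.2, CT33.7, CT32.6, and CT32.7 in that order. *Psmc1* was called in all but FoxP1SkmKO control mice. Its FPKM ran from 43.5 to 57.6 in WT control, from 41.7 to 58.4 in WT KPC, from 42.9 to 53.8 in FoxP1SkmKO control, and from 43.5 to 57.9 in FoxP1SkmKO KPC mice. The 24 h component did not differ between KPC and control mice for any member in either genotype, with 8 and 2 members under 0.05 unadjusted (16.3% and 4.08%, against 13.5% and 10.9% of all genes) and 0 by DESeq2 in both, and it differed for 0.384% of all genes in WT and 0.0064% in FoxP1SkmKO mice.

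A sinusoid was also fitted to FPKM in each arm, and a gene was called rhythmic at an unadjusted p under 0.01. By that rule, 1 member was rhythmic in WT control mice (*Psma3*), against 4.92% of genes with varying FPKM. In WT KPC mice 8 were, against 4.22%, namely *Psma3*, *Psmb2*, *Psmc1*, *Psmd1*, *Psmd11*, *Psmd2*, *Psme4*, and *Psmf1*. In FoxP1SkmKO control mice 4 were, against 4.07%, namely *Psma3*, *Psmc6*, *Psmd11*, and *Psmd12*, and in FoxP1SkmKO KPC mice *Psmc1* alone, against 2.63%. In WT KPC mice, 7 of the 8 peaked between CT32.8 and CT34.1, and *Psmf1* peaked at CT20.3. With each of the 12 libraries left out in turn, *Psmf1* stayed under 0.01 in 2 fits and *Psmb2* in 4. The rest of the 8 did so in 10 to 12.

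Counts of this kind did not show a change in rhythm. *Psmd1* and *Psmd11*, 19S subunits, had fitted amplitudes of 1.34 and 0.594 FPKM in WT control, 1.01 and 0.957 in WT KPC, 0.954 and 0.918 in FoxP1SkmKO control, and 0.535 and 0.53 in FoxP1SkmKO KPC mice. In the test of the difference between KPC and control, 1 member was under 0.05 unadjusted in WT mice (*Psme1*) and 2 in FoxP1SkmKO mice (*Psmc6* and *Psme2*), against 5.07% and 5.09% of genes by the same F tests. After adjustment it was called for 0% and 0% of genes and for no member.

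Genes of the wider pathway were counted in the same way. In the shared daily pattern, where 39.9% of all genes were called, 7 of 9 tested proteasome genes whose symbols the rule misses were called, 6 of them with peaks between CT30 and CT36. They included the 19S subunit *Sem1* (0.17, CT31.9, adjusted p = 1.04e-06), the assembly factor *Pomp* (0.080, CT31.1, adjusted p = 0.01), and the proteasome deubiquitinase *Usp14* (0.14, CT34.8, adjusted p = 7.34e-06). Of 9 genes for proteasome transcription, 8 were called and 7 peaked in that window, with *Nfe2l2* at 0.23 and CT34.7 (adjusted p = 2.62e-09) and *Nfe2l1*, the Nrf1 gene, at 0.086 and CT30.4 (adjusted p = 0.00072). Of 10 muscle ubiquitin ligases, 7 were called and 3 peaked there. *Fbxo32*, the atrogin-1 gene, had 0.27 and CT26.7 (adjusted p = 0.02). Shuttle factors and p97 genes had 5 of 12 called, ubiquitin and E1 genes 2 of 6, and the interferon list 1 of 14.

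In the KPC comparison of WT mice, these lists had 0 of 9, 0 of 9, 0 of 6, 1 of 12, and 0 of 10 called in the order other proteasome genes, transcription, ubiquitin and E1, shuttle factors, and muscle ligases, the 1 being *Ufd1* (-0.12, adjusted p = 0.0394). Averaged over both genotypes, the ligases *Fbxo32* (0.39, adjusted p = 0.0311) and *Fbxo31* (0.16, adjusted p = 0.00854) rose with KPC. In the comparison of genotypes, *Mafg* was called in KPC mice (0.24, adjusted p = 0.00914), and no gene of these lists was called in control mice.

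Members varied together within groups. After the mean of each group of 2 mice was taken out, the 465 pairs of 20S and 19S subunits had a median correlation of 0.287 over the 48 libraries, 88.6% of them above 0, against -0.00025 for pairs of all genes. The 2 deviations of a group are equal and opposite, so the 48 values carry only 24 independent ones, here and in the correlations below. The libraries share depth and the length trend given above. *Psmd13* (0.76) and *Psmd6* (0.74) followed the mean of the other subunits most closely, and *Psmd3* (0.075), *Psmd11* (0.10), *Psmd2* (0.15), and *Psmd1* (0.24) least. The immunoproteasome subunits followed each other, with 0.73 for *Psmb8* and *Psmb9*, 0.59 for *Psmb8* and *Psmb10*, and 0.56 for *Psmb9* and *Psmb10*, and had a median correlation of 0.065 with the 31 subunits. Outside the family, the 10 genes most like the mean of the subunits, among those with a mean log2 CPM above 3, were *Ufc1* (0.78), *Zcrb1* (0.77), *Mrpl22*, *Ndufb7*, *Atp5g2*, *Cystm1*, *Cox7a2*, *Mrpl51*, *Ndufs3*, and *Fis1* (0.71).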

How the data were processed

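RNA-seq was performed on tibialis anterior muscle of 48 mice. The authors deposited whole-number read counts per gene, FPKM, and, for each KPC and control pair of groups, normalized counts (a signal scale, counts divided by the DESeq2 size factors of the 4 libraries in a table). In those tables the authors also deposited log2 fold change and p-value columns of their own comparisons, which were not used. The submitters' processing notes name HISAT2 2.0.5, DESeq2 1.20.0, and mm39, while the methods of the study name STAR. The RNA was purified with poly-T beads, so RNA without a poly(A) tail is under-represented, and the strand setting of the counting is not given in the sources used here. Columns of other samples numbered 0.

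Counts of the 15637 genes kept by edgeR's expression filter were tested with edgeR 4.0.16 (TMM scaling, quasi-likelihood F test, R 4.3.3) in 1 fit of all 24 groups without covariates, which left 24 residual degrees of freedom. Contrasts averaged the 6 times or took each time alone, and the 24 h component came from the same fit. Adjusted p-values are Benjamini-Hochberg values over all genes tested, at a threshold of 0.05. FPKM was fitted in each arm with a 24 h sinusoid by an F test, following the study's p under 0.01. The length trend was removed from each library with a lowess curve of span 0.4. Tests were first checked on simulated counts. Alternatives were DESeq2 1.42.0, RLE scaling, no expression filter, a replicate block, other pseudocounts for FPKM, leaving out each library, and, added after seeing the data, length trend removal, contrasts without CT26 or without WT control mice, contrasts averaged over genotype or treatment, and CT26 against its neighbours. Figures were drawn with matplotlib 3.10.9.

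Same-numbered replicates did not deviate together. The 2 libraries of a group differed beyond counting error in all 24 groups (chi-square per degree of freedom 5.15 to 17.4). The members, gene lists, and marker lists were chosen with earlier results of these data known. The text names the 3 catalytic pairs, *Psme1* to *Psme4*, *Psmf1*, *Psmd1*, and *Psmd11*, each member called in an averaged comparison or rhythmic in an arm, the 3 highest and 3 lowest members of each averaged comparison, called genes of the pathway lists (not all are reported here), and the 10 other genes most like the subunits.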

Additional observations from a re-analysis of the deposited data

How the results depend on the processing

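Of the calls for genotype in control mice, *Psma3* held under every setting tried, while *Psme4* was called in 40 and *Psmd14* in 13 of 48 fits without 1 library. Without the expression filter, 3 members were called for KPC in WT mice (*Psmb5*, *Psmb8*, and *Psmb9*), 1 in FoxP1SkmKO mice, and 1 for genotype in KPC mice (*Psme2*), and the single times gave 4 calls in WT and 1 in FoxP1SkmKO mice. DESeq2 on 48 libraries gave 3 for KPC in WT mice, and on the 4 libraries of a time gave 1 over the single times in WT mice, where removing the length trend gave 0. *Psmd14* lost its call for genotype in control mice under RLE scaling, the replicate block, length removal, and no filter. With 1 library left out, the calls ranged from 0 to 3 for KPC in WT mice, 0 to 1 in FoxP1SkmKO mice, 0 to 0 for their difference, 1 to 5 for genotype in control and 0 to 0 in KPC mice, 0 to 16 over the single times in WT and 0 to 0 in FoxP1SkmKO mice, and 19 to 24 for the shared 24 h component. For rhythms in FPKM they ranged from 1 to 2 in WT control, 5 to 9 in WT KPC, 3 to 5 in FoxP1SkmKO control, and 0 to 2 in FoxP1SkmKO KPC mice, and for the difference in rhythm from 0 to 3 in WT and 1 to 4 in FoxP1SkmKO mice. The upper ends came without WT KPC CT38 replicate 1 (3 for KPC in WT mice) and without WT control CT26 replicate 2 (5 for genotype, 16 over the single times). With rhythm p-values adjusted over all genes, 0 members remained in WT KPC, 0 in FoxP1SkmKO control, and 0 in FoxP1SkmKO KPC mice, and in the edgeR fit 11, 2, and 4 were called in WT control, FoxP1SkmKO control, and FoxP1SkmKO KPC mice, with 0 and 0 for the differences. Directions reversed for *Psmb8* for genotype in control mice without FoxP1SkmKO control CT18 replicate 2 (-0.10, against up to 0.26 without another library) and for *Psmc3ip* for genotype in KPC mice without FoxP1SkmKO KPC CT18 replicate 2 (-0.071) or CT30 replicate 2 (-0.03), against up to 0.16. Replicate numbers do not pair the mice: deviations of same-numbered libraries correlated at -0.324 to 0.234 (median -0.0038, 276 pairs), and a replicate block gave 2 calls for genotype in control mice, 24 for the shared 24 h component, and 0 rhythms in FoxP1SkmKO KPC mice. Among the named genes, 184 values under the other settings were the same in call and direction, 27 were weaker, and 8 were stronger. The cause of these changes was not tested. Precision was set by 2 mice per group, and low counts kept *Psma8* and *Psmb11* out of the tests.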

Other observations

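Processed pseudogenes of 20S subunits were outside the rule that chose the members. *Psma5-ps* had 1720 reads over the 48 libraries, between 21 and 57 in each, *Psmb6-ps2* had 14 in 10 libraries, and *Psmb7-ps2* had 10 in 6. *Psmb6-ps* and *Psmb5-ps* had 0. By edgeR's quasi-likelihood test, *Psma5-ps* had a log2 difference of -0.01 with KPC in WT mice (adjusted p = 0.985) and of 0.19 for genotype in control mice (adjusted p = 0.555).

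The split of reads between *Psme2* and *Psme2b* varied more than their sum. Over the 48 libraries, the coefficient of variation of CPM was 26.7% for *Psme2*, 18.9% for *Psme2b*, and 11.9% for both counted as 1 gene.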
